A study of Oncorhynchus kisutch with 206 samples.

Results

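Brain gene expression was compared between coho salmon (Oncorhynchus kisutch) with the place label WCVI, caught in the winter and in the fall of 2009. The label is read here as west coast of Vancouver Island and called the west coast. It is a label only, and the catch positions given below need not all lie off the outer coast. The fish were all those that the labels place at WCVI in 2009 in ocean winter (6 fish) or ocean fall (7 fish), 13 fish or 6.31% of the series. Each brain was hybridised on a 2-colour microarray against a pool of all the brain samples, with the same dye for the fish and the same other dye for the pool on every array. A value is a log ratio, read here as log2 of fish over pool, so that 0 is the level of the pool. The labels give neither the base nor the direction, and both were taken from the values as the likely reading; a natural log would make every fold larger, and the other direction would exchange higher and lower throughout. For comparison, the series also holds 8 summer fish of 2009 and 17 fall fish of 2008 from the same coast. From the northern and middle Strait of Georgia (labelled NM_SoG, called the Strait here), it holds 3 winter and 21 fall fish of 2009.

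The winter group held 4 hatchery and 2 wild fish, 4 females and 2 males, 5 fish of Puget Sound stock and 1 of a northern stock. The fall group held 1 hatchery and 6 wild fish and 5 females and 2 males. Its stocks were Oregon (2 fish), east coast of Vancouver Island, labelled ECVI (2), and Columbia, Puget Sound and a northern stock (1 each). The winter fish were caught at 2 positions, 5 of them at the same one, between latitudes 48.24 and 48.287 and longitudes -124.284 and -124.133. The fall fish were caught at 4 positions between latitudes 48.338 and 50.745. Fall fish 3511 was at longitude -123.769, and the others were farther west than the winter fish, between -127.286 and -126.033. No slide carried fish of both groups, and the 6 slides of the winter fish all had lower numbers than the 6 slides of the fall fish. Within these 13 fish, season cannot be told apart from slide, and it also moved with origin, stock and catch area.

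Probes are known here by their column and row on the array only, without a gene. At most a pair of probes in each direction is therefore named for a comparison, with no gene or function, and no gene list or cell type marker could be read. A brain sample of this kind mixes neurons, glia, blood and vessels, so that fewer cells of a type and less RNA per cell cannot be told apart.

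As background, coho salmon leave the river as smolts and grow fast on the coastal shelf through their first summer and fall at sea. The brain directs feeding and growth through the hypothalamus and pituitary, and it reads day length through the eyes and the pineal organ. From fall to winter the days shorten, the water cools and food becomes scarcer, and the first ocean winter is viewed as a period of high mortality for coho salmon.

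The winter fish were larger than the fall fish. Their fork lengths were 29.9, 32.3, 34.3, 35.4, 36.1 and 38 cm, against 24.6, 28.2, 28.5, 29.4, 31.3, 31.4 and 32.5 cm in fall. The winter fish averaged 34.3 ± 2.88 cm (SD, n = 6) and the fall fish 29.4 ± 2.66 cm (SD, n = 7), a difference of 4.92 cm (exact permutation test, two-sided, p = 0.00816, adjusted p = 0.0219 over 5 measures), and the ranges overlapped. Body mass was 524 ± 115 g in winter (339 to 670 g) and 336 ± 95.3 g in fall (167 to 450 g), a difference of 189 g (exact permutation test, two-sided, p = 0.00874, adjusted p = 0.0219). Mass for length was close on average: the condition index, 100 times the mass in g over the cube of the length in cm, was 1.28 ± 0.0473 in winter and 1.28 ± 0.111 in fall, a difference of -0.0029 (exact permutation test, p = 0.956; this measure was added later and stands outside the adjustment). Condition ran from 1.22 to 1.35 in winter and from 1.12 to 1.41 in fall.

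None of the 3 array measures passed the test between the seasons when read over all probes. The standard deviation of all log ratios on an array was 0.828 ± 0.171 in winter and 0.8 ± 0.131 in fall (exact permutation test, adjusted p = 0.749), and the array medians were within 0.048 of 0 in all 13 fish (adjusted p = 0.731). Over only the probes with a value on every array, the array median differed by -0.0537, winter minus fall (exact permutation test, unadjusted p = 0.00699). Empty values, which are probes without a ratio on an array, took 32.4% ± 1.92 of the 43630 probes in winter and 37.1% ± 7.13 in fall (exact permutation test, two-sided, p = 0.142, adjusted p = 0.237). Winter arrays were close together in this respect (29.3% to 35%), and fall arrays spread from 28.2% to 46.7%.

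On average, fish of the same season did not stand out as more alike. Over the 10942 probes with a value on every array of the series, each centred on its mean, winter fish correlated with each other at 0.27 on average (15 pairs, from -0.40 to 0.74), fall fish with each other at 0.14 (21 pairs, from -0.30 to 0.66), and winter with fall fish at 0.19 (42 pairs, from -0.43 to 0.76). The mean within seasons minus the mean between them was 0.00 (exact permutation test over the 13 fish, one-sided, p = 0.316). These correlations run across probes, which are not independent replicates. The main division crossed the seasons. Winter fish 4217 correlated at 0.762 with fall fish 3712 and at 0.63 with fall fish 3628, but at -0.401 with winter fish 4215. Winter fish 4207, 4215, 4216 and 4218 correlated with each other at 0.559 to 0.742, and with fall fish at no more than 0.556. The arrays of 4217 and 3712 had the widest spread of log ratios in their seasons (SD 1.13 and 0.978), and fall fish 3628 and 3712 shared a slide. On the first component of the 13 fish alone, fish 4217, 3712 and 3628 had the highest scores (0.938, 0.780 and 0.528). Over the 13 fish these scores correlated with the array SD at a Pearson's r of 0.703 (permutation test, p = 0.0077, adjusted p = 0.0154 over 2 relations) and a Spearman's rho of 0.324 (permutation test, p = 0.283, adjusted p = 0.553), and r was 0.557 without the 2 fish farthest from the median SD. With the share of empty values r was 0.254 (permutation test, p = 0.403) and rho 0.181 (p = 0.553), and r was 0.117 without the 2 farthest fish. Scores and array SD come from the same arrays and are not independent measures.

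**Figure D1:**
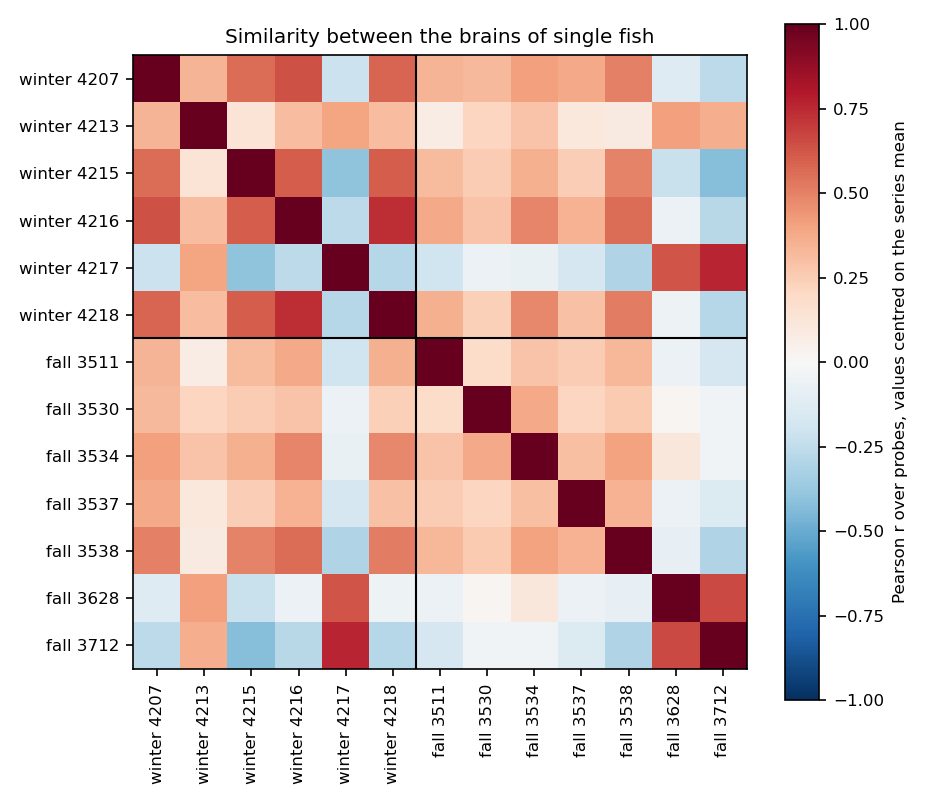
Pearson correlation between the brains of the 13 fish over 10942 probes, each centred on its series mean; rows and columns are fish, winter before fall, and black lines part the seasons. Winter fish 4217 stands with fall fish 3628 and 3712. Winter fish 4207, 4215, 4216 and 4218 correlate with each other at 0.559 to 0.742 and with fall fish 3538 at 0.494 to 0.556. Winter fish 4213 correlates with 3538 at 0.088 and with 3628 at 0.413.

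Among the main axes of variation over all arrays, the seasons parted on the fourth. Scores are in log2 units, as the root mean square over probes. On component 1, with 32.6% of the variance, the winter scores averaged -0.15 ± 0.461 and the fall scores -0.0845 ± 0.37 (exact permutation test, adjusted p = 0.787 over 4 components). On component 2 (7.1%) they averaged 0.202 ± 0.104 in winter and 0.241 ± 0.117 in fall (adjusted p = 0.726), and on component 3 (4.46%) -0.167 ± 0.151 in winter and -0.119 ± 0.138 in fall (adjusted p = 0.726). On component 4 (3.89%) the winter fish were higher, at 0.221 ± 0.0598 (0.146 to 0.297), against 0.0884 ± 0.09 (-0.0513 to 0.216) in fall, a difference of 0.133 (exact permutation test, two-sided, p = 0.0117, adjusted p = 0.0466), with overlapping ranges. The call was lost after quantile normalization of the arrays (exact permutation test, adjusted p = 0.284). This redrew the component, whose scores correlated at 0.451 with the original ones. Components computed on the 13 fish alone are other axes and need not match these by number. None of them passed the test. Components 2, 3 and 4 had adjusted p of 0.0645, 0.0618 and 0.0618 (exact permutation test, unadjusted p = 0.0484, 0.0157 and 0.0309).

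No probe passed the test between winter and fall. Of the 28275 probes with at least 3 values in each season, 0 (0%) had an adjusted p under 0.05 in limma's moderated test, which was fitted to all arrays of the series with a mean for each of 19 groups and the slide as a random block. The lowest adjusted p was 0.0734. Before adjustment 1691 probes (5.98%) had a p under 0.05, of which 838 were higher and 853 lower in winter. A p that misses the threshold does not show that a probe was equal in both seasons. The median 95% interval, unadjusted, reached 0.649 to either side of the fitted log2 change, which is 1.57-fold. Passing after adjustment over all tested probes generally takes a larger change than that. Fitted changes were at least 2-fold in 381 probes (1.35%), with 130 higher and 251 lower in winter, and 90% of all changes lay between -0.627 and 0.566. Among the 19603 probes with a value in all 13 fish, the seasons did not overlap in 83 (0.423%): every winter fish was above every fall fish in 28 probes and below in 55.

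No probe was called under 17 of 22 other settings of the fit or the threshold either, nor in 9 of the 13 fits that left out 1 fish. The 17 include a 1.5-fold limit beside the adjusted p. That limit only narrows the main calls, so it was bound to call none. Weighting the arrays by how well they followed the model called 405 probes (143 higher and 262 lower in winter; 5202 before adjustment). These weights ran from 0.11 to 6.2 over the series, and among the 13 fish from 0.287 in fall fish 3537 to 3.08 in winter fish 4218. With fork length as a term 1 probe was called, and with the west coast fish alone, a setting chosen after seeing the data, 1 was (C144R135, limma, adjusted p = 0.00051). The fit on west coast fish alone also used its own slide correlation, 0.644, against 0.138 in the main fit. Leaving out winter fish 4207 called 1 probe, and leaving out fall fish 3534, 3538 or 3712 called 1, 2 and 3 probes, all of them higher in winter.

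**Figure D2:**
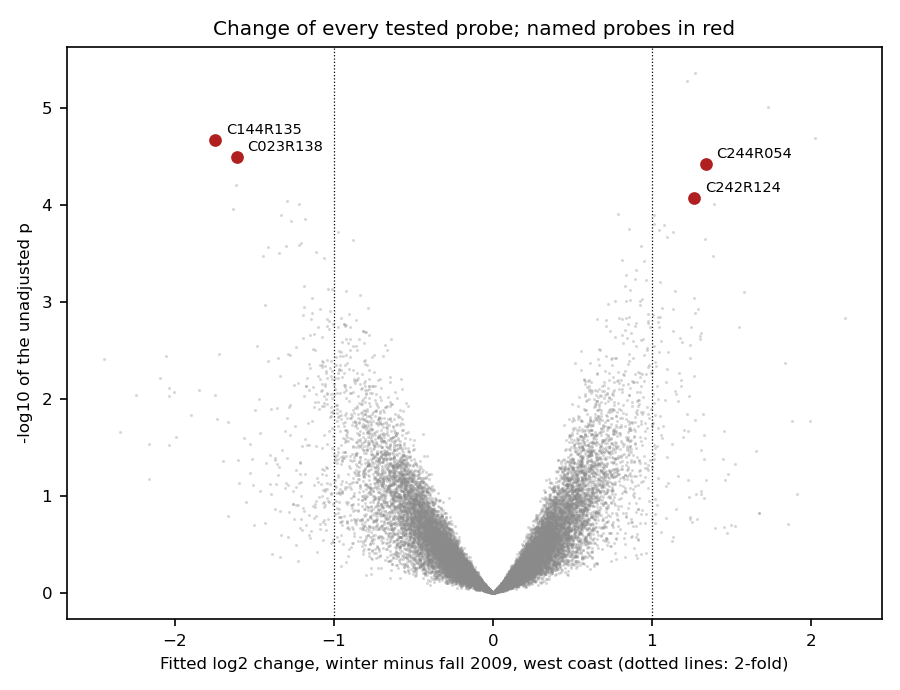
Fitted log2 change (winter minus fall 2009, west coast) against -log10 of the unadjusted p for each of the 28275 tested probes, with the 4 named probes in red. Probes with a p under 0.05 lie on both sides of 0 (838 higher and 853 lower before adjustment), and 381 probes lie outside the dotted 2-fold lines (130 higher and 251 lower).

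Since none passed, the probes named are those with a value in all 13 fish and the lowest adjusted p in each direction. They were chosen by this contrast, so their values describe the largest separations in it and support nothing beyond. In the direction of lower winter values, probe C144R135 had log2 ratios of -2.98, -2.48, -2.44, -2.30, -2.09 and -1.90 in the winter fish, against -1.45, -0.95, -0.87, -0.70, -0.60, -0.52 and 0.41 in the fall fish. All winter fish lay below all fall fish, as in 0.423% of the probes. The fitted change was -1.74 (SE 0.40, 3.35-fold; limma, adjusted p = 0.12). Over the 19 groups of the series the winter mean of -2.37 ± 0.37 was the lowest, followed by the Strait winter fish at -2.10 ± 0.99 (n = 3) and the west coast fall fish of 2008 at -1.71 ± 0.37 (n = 17).

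Probe C023R138 was at -1.88, -1.64, -1.48, -1.15, -1.04 and -0.96 in winter, against -0.29, -0.03, -0.02, 0.16, 0.24, 0.69 and 1.90 in fall. Here too the seasons did not overlap. The fitted change was -1.61 (SE 0.38, 3.05-fold; limma, adjusted p = 0.15). The summer fish of 2009 lay between -3.68 and 0.68 with a mean of -0.99 ± 1.36 (n = 8). The fall fish were higher than these by 1.33 (limma, adjusted p = 0.0213), and the winter mean was -1.36 ± 0.36. The contrasts of fall against summer and of winter against fall share the fall fish. Since the probe was chosen for fall values above winter, a rise from summer is favoured by that choice and shows no course over the year. The west coast fall fish of 2008 averaged -0.88 ± 0.70 (n = 17).

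In the direction of higher winter values, probe C244R054 lay within a narrow band in winter, at 0.48, 0.54, 0.65, 0.66, 0.83 and 0.85. In fall it was at -2.15, -1.96, -1.55, -0.04, 0.22, 0.62 and 0.88. The seasons overlapped, because fall fish 3628 and 3712 reached the winter level while 3 others were below -1.5. The fitted change was 1.34 (SE 0.32, 2.53-fold; limma, adjusted p = 0.152), and without fall fish 3712 it was 1.54 with an adjusted p of 0.0491. The 3 Strait winter fish were close to each other too, at 0.47, 0.59 and 0.66.

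Probe C242R124 was at 0.43, 0.59, 0.79, 1.35, 2.54 and 2.54 in winter, against -0.47, -0.38, -0.28, 0.10, 0.38, 0.42 and 0.98 in fall. The 2 highest winter fish (4213 and 4217) were far above the rest, and the ranges overlapped. The fitted change was 1.27 (SE 0.31, 2.41-fold; limma, adjusted p = 0.224).

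**Figure D3:**
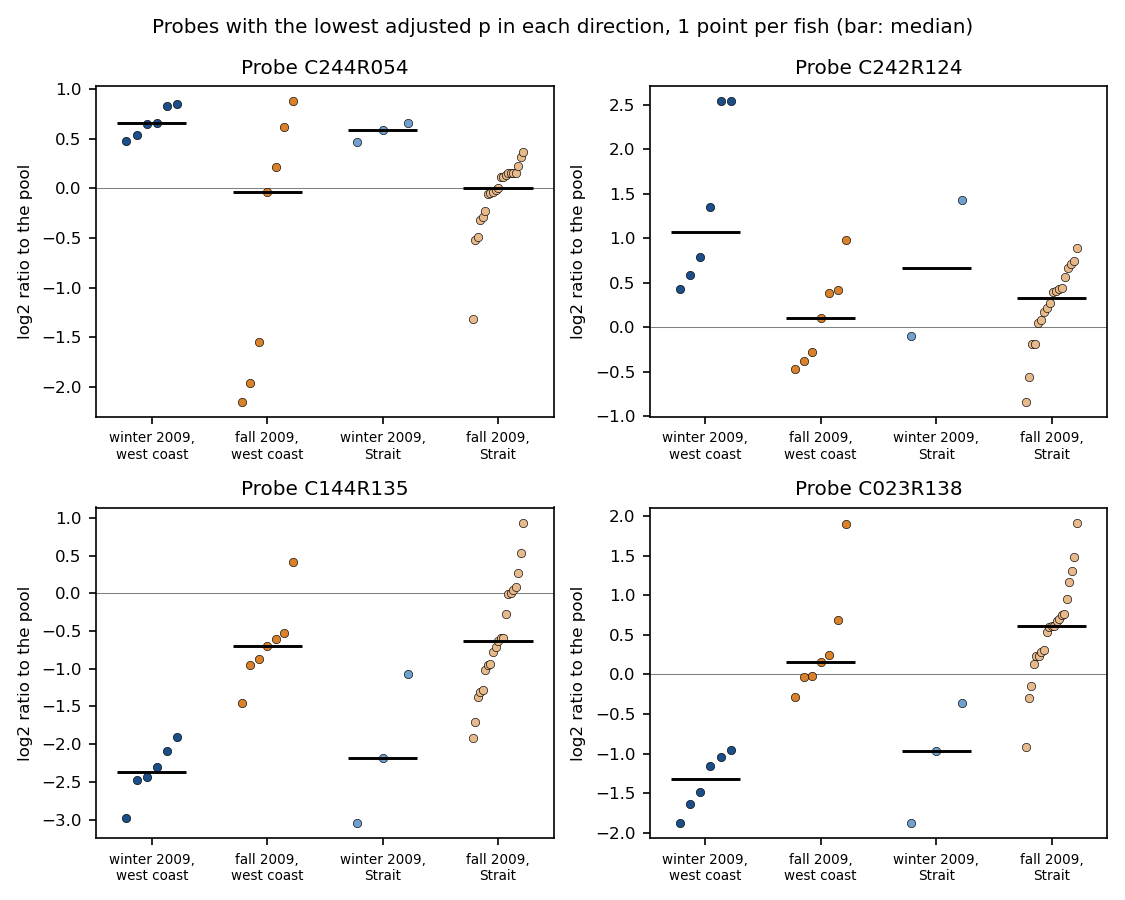
Log2 ratio to the pool for the 4 named probes, with 1 point per fish and the group median as a bar, in winter and fall fish of 2009 from the west coast and from the Strait. For C144R135 and C023R138 all 6 west coast winter fish lie below all 7 fall fish; for C244R054 the winter fish lie between 0.48 and 0.85 and the fall fish between -2.15 and 0.88.

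Because winter slides had the lower numbers, the same 4 probes were read by slide number in Strait fall fish of 2009 and in west coast fall fish of 2008. On slides within the range of numbers that holds every winter fish of the series, C144R135 averaged -1.41 ± 0.49 (n = 3) in northern and middle Strait fish and -0.44 ± 0.82 (n = 8) in southern ones, labelled south_SoG. On later slides it averaged -0.44 ± 0.69 (n = 18) in northern and middle Strait fish and -0.92 ± 0.72 (n = 14) in southern ones. Its mean was thus lower on slides of the winter range in the first group and higher in the second. In west coast fall fish of 2008 it averaged -1.66 ± 0.37 (n = 14) on slides of the winter range and -1.95 ± 0.28 (n = 3) on later ones. C023R138 averaged 0.26 ± 1.03 in the northern and middle Strait fish on slides of the winter range and 0.62 ± 0.57 on later ones. In the southern fish it averaged -0.12 ± 0.58 on slides of the winter range and 0.07 ± 0.50 on later ones, and in the west coast fish of 2008 -0.96 ± 0.73 and -0.48 ± 0.47. In all 3 groups its mean was lower on slides of the winter range, the same direction as its change in winter. The part of slide number in the winter change of C144R135 or of C023R138 was not tested.

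For C244R054 the means on slides of the winter range and on later ones were -0.04 ± 0.40 and -0.08 ± 0.38 in northern and middle Strait fish, -0.23 ± 0.76 and -0.03 ± 0.33 in southern fish, and 0.09 ± 0.26 and 0.78 ± 0.21 in west coast fish of 2008. For C242R124 they were 0.09 ± 0.58 (n = 3) and 0.26 ± 0.45 (n = 15) in northern and middle Strait fish, 0.19 ± 0.75 (n = 8) and 0.59 ± 0.47 (n = 12) in southern fish, and 0.89 ± 0.60 (n = 13) and 1.02 ± 0.14 (n = 3) in west coast fish of 2008. By its mean, C242R124 was lower on slides of the winter range in all 3 groups, and C244R054 was lower in the last 2. Some of these means rest on 3 fish. The part of slide number in the winter change of these probes was not tested.

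Some probes gave a ratio in 1 season only. In 5 of the 43630 probes (0.0115%) every winter fish had a value and no fall fish had, and 0 probes showed the reverse. With 1 exception allowed on each side there were 159 probes of the first kind and 2 of the second. The lowest p that Fisher's exact test can give for 6 against 7 fish is 0.000583, which these 5 probes had, and with so few probes at that value none could pass adjustment over 43630 probes. That 0 were called therefore says nothing about the seasons (322 probes had an unadjusted p under 0.05, of which 313 had values more often in winter). On average 67.6% of the probes had a value in a winter fish and 62.9% in a fall fish, which favours this direction, and its part in the counts was not tested. Among the 5, the probe with the highest mean ratio in winter, C145R091, was at 0.18, 0.27, 0.43, 0.49, 1.27 and 1.44 in the winter fish. It also had a value in all 3 Strait winter fish, in 13 of the 17 west coast fall fish of 2008 and in 94 arrays of the series. Both this choice and the count followed from the values seen.

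Against the fall of the year before, fewer probes had a low p. Of 29936 probes tested between winter 2009 and the 17 west coast fall fish of 2008, 0 (0%) were called (limma; lowest adjusted p 0.148), and 934 (3.12%) had a p under 0.05 before adjustment, 559 of them higher in winter. This contrast has the same winter fish as the first, and the median 95% interval was narrower, at 0.537 to either side. The fall fish of 2008 were smaller (16 to 32.8 cm), and 14 of the 17 lay on slides of the winter range. Most of them were wild, and they came from more stocks than the winter fish. Most were also male, where most winter fish were female. All were caught farther west than the winter fish, between longitudes -127.147 and -124.882. In this contrast season cannot be told apart from year, and it also moved with size, origin, stock, sex and catch area. For the 4 probes named above, winter minus fall 2008 was -0.64 in C144R135, -0.36 in C023R138, 0.45 in C244R054 and 0.48 in C242R124, all smaller in size than against the fall of 2009, the contrast that chose these probes. A difference between the years was not tested here.

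The probes named against fall 2008 were others, with the lowest adjusted p in each direction among those with a value in every fish. Probe C122R116 was higher in winter by 1.07 (SE 0.24, limma, adjusted p = 0.148). Probe C196R051 was at 0.82, 1.14, 1.15, 1.21, 1.31 and 1.5 in winter, against -1.43 to 1.05 (median -0.10, n = 17) in fall 2008, with a fitted change of 1.27 (SE 0.29; limma, adjusted p = 0.148). In the fall of 2009 it lay between 0.33 and 0.96, so that its winter fish overlapped with both falls. Probe C107R107 was at -0.60, -0.59, -0.44, -0.15 and -0.13 in 5 winter fish and at -4.88 in fish 4217, against -0.74 to 0.27 in fall 2008. Its fitted change of -0.96 (SE 0.24; limma, adjusted p = 0.495) includes that fish, and the other 5 lie inside the range of fall 2008.

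In the Strait, by contrast, the step from fall to winter gave calls. Winter differed from fall in 299 of 20777 probes there (1.44%; limma, adjusted p under 0.05), 105 higher and 194 lower in winter, from 3 winter and 21 fall fish. The Strait winter fish were all wild and 34.0 to 35.6 cm long, and the fall fish 18.7 to 28.4 cm. The winter fish were also all male, of Fraser stock, caught at 1 position and on slides of the winter range. The fall fish were wild and hatchery fish of both sexes and of 3 stocks from several positions, with 18 of the 21 on later slides. The condition index was 1.0482, 1.0727 and 1.1225 in the winter fish, and 1.1682 to 1.3649 in the fall fish with a mass. In the Strait, season therefore moved with size, condition, sex, stock, origin, catch position and slide number. The Strait calls cannot be told apart from these. On the west coast the mean condition was close in both seasons. The count was 43 with arrays scaled to the same spread, 48 with a fixed term for each slide, 53 when arrays were quantile normalized and 4447 with array weights. The array SD was 0.82 to 1.20 in the 3 winter fish and 0.543 to 1.51 in the fall fish, and scaling the arrays to the same spread is the setting that gave the count of 43.

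These Strait probes were then read in the west coast fish, which were not in the contrast that chose them. All arrays shared the fit, so the west coast fish had a part in its spread and slide correlation. Of the 194 probes lower in the Strait winter, 185 had a fitted change below 0 on the west coast as well (95.4%), where 52.9% of all 20598 probes tested on both coasts did. Their median change was -0.56 on the west coast and -1.52 in the Strait, and -0.025 over all those probes on the west coast. Of the 105 probes higher in the Strait winter, 92 had a change above 0 on the west coast (87.6%, against 47.1% of all), with a median of 0.35, against 1.15 in the Strait. Over all 20598 probes the change had the same direction on both coasts in 62%. Both winter groups lay on slides of the winter range. Before adjustment 61 of the 194 (31.4%) and 27 of the 105 (25.7%) had a p under 0.05 on the west coast, where 6.19% of all did. None of the 299 was called there after adjustment (limma, lowest adjusted p 0.12). The medians in the Strait are of probes picked for their size in those fish. West coast winter fish 4216 and Strait winter fish 4129 shared a slide, as did west coast winter fish 4207 and Strait fall fish 2593. West coast fall fish 3628 and 3712 shared a slide with Strait fall fish 3118 and 3124, and 3538 with 3188. The readings on the 2 coasts are therefore not fully independent. Without a slide term the medians were -0.54 and 0.32.

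Single fish showed the same order. Over the 194 probes the median log2 ratio of a fish lay between -1.20 and -0.91 in the 6 west coast winter fish (median -1.04), against -0.76 and -0.23 in the 7 fall fish of 2009 (median -0.52), with no overlap. The 17 west coast fall fish of 2008 lay between -1.13 and -0.59 (median -0.88) and overlapped with winter. In the Strait the 3 winter fish lay between -1.25 and -0.95, against -0.02 and 0.93 in the fall fish. Over the 105 probes the range was 0.48 to 0.89 in west coast winter fish (median 0.56), against 0.19 to 0.54 in the fall fish of 2009 (median 0.28) and 0.18 to 0.78 in those of 2008 (median 0.40). Winter and fall overlapped here.

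The medians were also read by slide number in fish that had no part in any of these contrasts. In southern Strait fall fish of 2009 the median over the 194 probes was 0.29 on slides of the winter range (8 fish, -0.41 to 0.95). On later slides it was 0.24 (14 fish, -0.22 to 0.97). Over the 105 probes it was 0.08 on both, with ranges of -0.61 to 0.51 and -0.24 to 0.29. The part of slide number in the changes shared by both coasts was not tested.

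**Figure D4:**
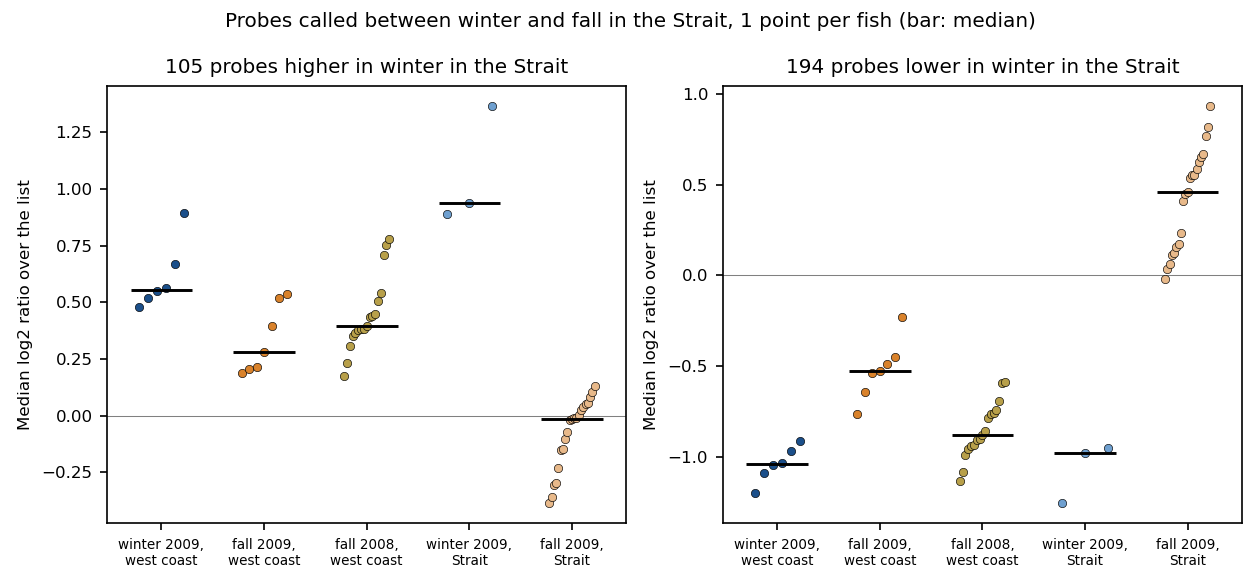
Median log2 ratio of each fish over the 105 probes higher and the 194 probes lower in winter in the Strait (bars: group medians). Over the 194 probes the west coast winter fish lie between -1.20 and -0.91, below all 7 fall fish of 2009. The contrast of the Strait fish chose the probes, in a fit that also held the west coast fish.

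Among the 4 probes named for the Strait by the size of their change, C168R022 fell by 3.05 in the Strait winter (SE 0.73; limma, adjusted p = 0.0125). On the west coast it was at -4.53, -4.44, -4.41, -3.32, -3.10 and -2.63 in winter, against -2.87, -2.33, -2.16, -2.07, -1.83, -1.47 and -1.11 in fall. All but 1 of the winter fish lay below all the fall fish, and the fitted change was -1.75 (SE 0.66; limma, adjusted p = 0.652). Its west coast fall fish of 2008 were already at the winter level, with a mean of -3.80 ± 0.87 (n = 17), against -3.74 ± 0.82 in winter. C145R138, which fell by 2.95 in the Strait (limma, adjusted p = 0.00588), changed by -1.08 on the west coast (SE 0.60; adjusted p = 0.865). C049R113, higher by 2.62 in the Strait (adjusted p = 0.00447), changed by 1.32 (SE 0.53; adjusted p = 0.726), and C255R067, higher by 1.88 (adjusted p = 0.000484), by 0.69 (SE 0.31; adjusted p = 0.776). Those 3 probes overlapped between the seasons on the west coast. C144R135 and C023R138, the probes named above for lower west coast winter values, also fell in the Strait winter, C144R135 by 1.60 (limma, adjusted p = 0.0358) and C023R138 by 1.53 (adjusted p = 0.0335).

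Whether the step differed between the coasts was tested directly, as the west coast change minus the Strait change. Of 20598 probes 0 (0%) were called (limma; lowest adjusted p 0.199), and 943 (4.58%) had a p under 0.05 before adjustment. The intervals were wide, with a median reach of 0.937 to either side (1.91-fold), and 4090 probes were called with array weights. The lowest adjusted p belonged to C263R077, which changed by 0.93 on the west coast (-1.30 to 0.18 in winter, against -3.01 to -0.74 in fall) and by -1.57 in the Strait, a difference of 2.50 (SE 0.55). In the opposite direction C144R113 changed by -0.53 on the west coast (-1.13 to 0.33 in winter, against -0.56 to 1.29 in fall) and by 1.03 in the Strait, a difference of -1.57 (SE 0.43; adjusted p = 0.822). The 1.29 belonged to fall fish 3537 alone, which lay far from the other fall fish. C029R042, with the same adjusted p and a lower unadjusted one, changed by -0.47 on the west coast and by 0.92 in the Strait, a difference of -1.39 (SE 0.35).

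The step before, from summer to fall, gave more calls on this coast. Between the 7 fall and the 8 summer fish of 2009, the test passed 633 of 28845 probes (2.19%; limma, adjusted p under 0.05), of which 493 had higher values in fall and 140 lower ones. The summer fish were 14.2 to 18 cm long, and the fall fish 24.6 to 32.5 cm. Most summer fish were of Columbia stock, all but fish 2311 were wild, and all had the sex label U. Season therefore moved with size and stock here too, and these calls cannot be told apart from them. Over the 493 probes the median log2 ratio of a fish was -1.36 to 0.02 in summer (median -0.41), 0.37 to 0.93 in fall (median 0.62) and -0.06 to 0.88 in winter (median 0.31). Over the 140 probes it was -0.11 to 0.56 in summer (median 0.27), -1.74 to -0.57 in fall (median -0.84) and -1.04 to -0.10 in winter (median -0.40). By its median, winter lay nearer to fall than to summer in both lists, and its range overlapped with those of both fall and summer. The gap between summer and fall was fixed by choosing the probes on those fish, and a shift of winter from fall towards summer would follow from that choice too. From fall to winter 323 of 492 tested probes of the first list and 119 of 138 of the second moved back, with median changes of -0.18 and 0.39. Of all 28171 probes tested in both steps, 50.5% were lower and 49.5% higher in winter, with a median change of -0.004.

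**Figure D5:**
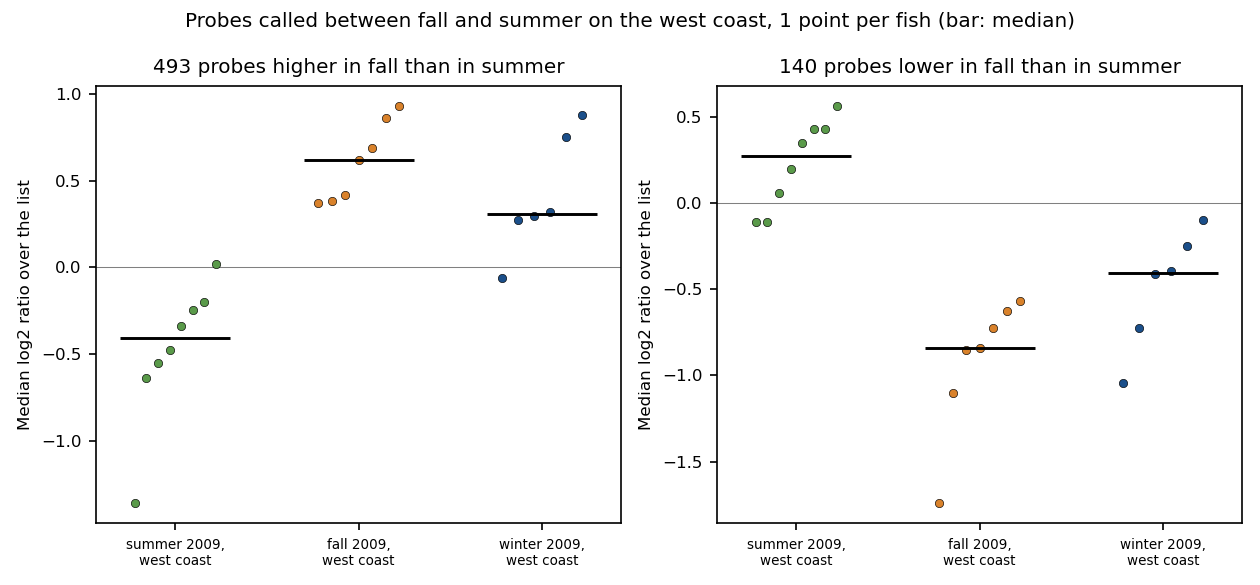
Median log2 ratio of each west coast fish of 2009 over the 493 probes higher and the 140 probes lower in fall than in summer, by season (bars: group medians). The summer and fall fish chose the probes; the winter fish lie at medians of 0.31 and -0.40, between summer and fall.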

How the data were processed

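Brain RNA of each fish and a pool of all brains were hybridised on the same array, per the labels. The ratios the authors deposited are log values of unstated base and direction, read here as log2 of fish over pool. How scanner signals became ratios, and why values are empty, is not given in the sources used here. Over 17531 probes, split into 10 classes by variance, the log2 of the mean back-transformed ratio ran from 0.06 to 0.21 as fish over pool and from -0.07 to 1.16 as pool over fish. With the values read as natural logs of fish over pool, the natural log of that mean ran from 0.14 to 0.27. This last range is in natural log units and the others are in log2 units. A further table of the series, which repeats these values beside control rows, was not used here.

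Empty values (34.5%; 16.6% to 57.6% per array) were left out probe by probe. The linear models followed limma 3.58.1 (R 4.3.3), with 1 slide correlation (0.138) over 61 slides, moderated variances, and Benjamini-Hochberg adjustment over probes with at least 3 values in each group. The code was tested on simulated data and against limma on 500 probes, where log2 changes differed by at most 1.0e-14. Single values were tested by exact permutation over fish. Array weights used limma's gene-by-gene method, since its default did not converge. No arrays held identical values. Each fish is 1 replicate, and the number of arrays limits the precision.

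Named probes are, for each comparison, up to 2 of the largest rises and 2 of the largest falls among called probes with a value in every fish, filled up with the lowest adjusted p where fewer were called. The fish groups, probes and lists were chosen with earlier results of these data known. Alternatives covered the slide term, array scaling and weights, covariates, filters and single fish. Added after seeing the data were the fit on west coast fish alone, the re-estimated slide correlation under array weights, the mean of both falls, the fit without fish 4217 and 3712, the quantile normalized similarity, and the Strait lists without a slide term. Gene and marker lists could not be applied, as probes carry no gene names here.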

Additional observations from a re-analysis of the deposited data

Results flagged for a closer look

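In 60 sets of 6 or 7 values checked for a sample far from the others, of which about 1 in 20 would be picked out by chance, 3 stood out. Winter fish 4217 had an array median of 0.048, where the other 5 winter fish lay at 0.0143 or less; its array SD of 1.13 was the highest of the 13 fish. The same fish had -4.88 on probe C107R107, where the other winter fish lay between -0.60 and -0.13. Fall fish 3537 had 1.29 on probe C144R113, where the other 6 fall fish lay between -0.56 and 0.04. Fish 4217 is included in all values unless it is named as left out; without it 0 probes were called between winter and fall, with 1953 below 0.05 before adjustment.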

How the results depend on the processing

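Between winter and fall 2009 on the west coast, the number of called probes was 405 with array weights and 428 with the slide correlation re-estimated under them, 1 with fork length as a term, 1 with the west coast fish alone (C144R135, adjusted p = 0.00051), 3 at an adjusted p under 0.10, and 0 to 3 when a fish was left out (1 without 3534, 2 without 3538, 3 without 3712, 1 without 4207); other settings gave 0. For winter against fall 2008 it was 58 with array weights, 1 with slide as a fixed term, 1 with origin as a term, and 0 to 1 leaving out a fish (1 without fall fish 358). In the Strait, where the main count was 299, it was 48 with slide fixed, 53 after quantile normalization, 43 after scaling and 4447 with array weights; for the difference between the coasts it was 4090 with array weights and 1 each with fork length or array position as a term. The 161 probes with a value mostly in 1 season compare with 5 under the strict rule. Winter minus fall of component 4 was 0.11 after quantile normalization and missed the threshold. On component 4 of the 13 fish alone it was -0.206 and missed the threshold too. Signs are arbitrary there, and the axis need not be the same. The array median over probes present on every array differed by -0.0537, winter minus fall (exact permutation p = 0.00699), against 0.00537 over all probes. The difference in empty values ran from -6.19 to -3.11 percentage points leaving out a fish, and passed before adjustment only without fall fish 3534 (exact permutation p = 0.0498). The cause of these shifts was not tested. Each direction of the 4 named probes held in all 33 other settings. These probes were chosen by this contrast and the settings reuse most of its fish, so that a kept direction is no support. C144R135 passed the threshold in 3 of the settings, C244R054 in 3, C023R138 in 2 and C242R124 in 0. The fit on wild fish rests on 2 winter fish, with a minimum of 2 values a side. No paired analysis was possible because the fish numbers are unique to each fish. Single changes under about 1.57-fold lie within the median interval. That interval is unadjusted and for 1 probe at a time, so it is not the limit for a call, which generally takes a larger change.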

Other observations

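The spread between fish was larger in fall. Over the 19603 probes with a value in all 13 fish the median SD was 0.46 among the 6 winter fish and 0.55 among the 7 fall fish, and 58.4% of these probes had the larger SD in fall. The winter fish came from 2 catch positions and the fall fish from 4, and the fall fish came from more stocks. The part of these in the spread was not tested, and the difference in spread was not tested over fish.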
